A study of Mus musculus with 8 samples.

Results

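The 44 genes described here encode the core machinery that copies DNA, from the proteins that load the replicative helicase to the enzymes that supply deoxynucleotides. They were chosen by name, with earlier results of these data known. Each name matched 1 row in a table of 53801 genes. Of the 44 genes, 43 had a count in at least 1 library, as did 29043 genes of the whole table. The RNA came from stromal cells sorted from MO5 melanomas, subcutaneous tumours of a B16 mouse melanoma line made to express ovalbumin. The host mice were young adult ADAM12-GFP animals on the C57Bl/6 background, which carry a bacterial artificial chromosome that places Cre and GFP under Adam12 regulatory sequences. Sorted cells in both groups were CD45- and CD31- and positive for PDPN and PDGFRα, and they were divided by reporter signal into GFP+ (ADAM12+) and GFP- (ADAM12-) cells, with 4 RNA-seq libraries in each group. The groups shared host genotype, tumour line and gate, and no agent was given to either. The reporter follows the activity of the transgene, not the ADAM12 protein itself, and the study's methods count mice as replicates unless they say otherwise. The study's legend for this comparison gives n = 4. No source says whether the GFP+ and GFP- libraries of 1 number came from the same mouse.

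Total counts ran from 883144 to 17535099 reads in GFP- libraries and from 8776925 to 31666734 in GFP+ libraries. The shallowest, GFP- replicate 3, had 6 reads of Rfc3, 12 of Mcm10, 15 of Mcm7 and 48 of Mcm2. Thinned to 883144 reads, the replicate 1 libraries were expected to show 12933 genes (GFP-) and 12746 genes (GFP+), below the 14174 to 15414 of the other 6. All 8 genes of a stromal list (Pdgfra, Pdpn, Col1a1, Col1a2, Col3a1, Dcn, Lum and Thy1) were abundant in every library, and Pdgfra had 4706 to 7054 normalised counts in GFP- against 12812 to 16246 in GFP+ libraries. A normalised count is the read count divided by the DESeq2 size factor of its library. Transcripts of pigment cells were present as well, at a higher level in the GFP- libraries, and their values are given with the results they move with.

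Replication begins when the origin recognition complex (ORC), CDC6 and CDT1 load rings of MCM2 to MCM7 onto DNA before S phase, a step called origin licensing. CDC45 and the GINS complex then join MCM2 to MCM7 to form the active helicase, with MCM10 needed for its activation. DNA polymerase α with its primase lays down primers, polymerases δ and ε extend them while held by the PCNA clamp, and FEN1 and LIG1 join the pieces of the lagging strand. Many of these genes are transcribed late in G1 under E2F factors, and their transcripts are commonly low in resting fibroblasts.

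The promoters of 4 of these genes are printed because Mcm2, Mcm7 and Rfc3 were lower in GFP+ cells while Mcm6, whose product sits in the same ring as MCM2 and MCM7, did not pass the test. Each sequence runs 5′ to 3′ from 250 bases before the RefSeq start to 30 bases after it on GRCm38.p6, and capitals mark E2F words, here the octamers TTTCCCGC, TTTCGCGC, TTTGCCGC and TTTGGCGC searched on both strands.
Mcm2 promoter, chr6:88898751-88899030, minus strand: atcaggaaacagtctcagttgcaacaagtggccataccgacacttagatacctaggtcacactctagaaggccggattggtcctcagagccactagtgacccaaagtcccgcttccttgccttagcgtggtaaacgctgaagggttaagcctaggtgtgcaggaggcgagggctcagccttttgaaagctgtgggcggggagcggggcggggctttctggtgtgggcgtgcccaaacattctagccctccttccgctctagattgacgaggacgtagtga
Mcm7 promoter, chr5:138171854-138172133, minus strand: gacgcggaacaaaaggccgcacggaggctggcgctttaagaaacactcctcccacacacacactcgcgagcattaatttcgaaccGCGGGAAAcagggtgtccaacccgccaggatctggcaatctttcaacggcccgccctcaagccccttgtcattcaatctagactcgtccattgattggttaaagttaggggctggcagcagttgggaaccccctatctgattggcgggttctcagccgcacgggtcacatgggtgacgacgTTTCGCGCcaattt
Rfc3 promoter, chr5:151651179-151651458, minus strand: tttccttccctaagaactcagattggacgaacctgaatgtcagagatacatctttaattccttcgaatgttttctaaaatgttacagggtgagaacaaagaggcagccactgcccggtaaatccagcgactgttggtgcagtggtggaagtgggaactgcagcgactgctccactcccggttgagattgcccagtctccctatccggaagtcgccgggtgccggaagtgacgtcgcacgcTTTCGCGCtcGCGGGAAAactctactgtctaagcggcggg
Mcm6 promoter, chr1:128359676-128359955, minus strand: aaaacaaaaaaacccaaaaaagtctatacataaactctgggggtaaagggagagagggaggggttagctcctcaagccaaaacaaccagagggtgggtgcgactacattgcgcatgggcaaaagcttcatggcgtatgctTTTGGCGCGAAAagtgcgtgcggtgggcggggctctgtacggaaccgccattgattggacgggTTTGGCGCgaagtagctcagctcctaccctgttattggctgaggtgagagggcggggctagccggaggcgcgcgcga
The Mcm2 window held no E2F word. Mcm7 had words at bases -165 and 17, counted from the start as base 1, and in Rfc3 the words lay at bases -10 and 1. Mcm6 had 3, of which those at bases -110 and -106 overlap on opposite strands, so that they print as a single run of capitals.

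Of the 44 genes, 37 had a promoter in the RefSeq table. Gins1, Gins2, Gins4, Prim2, Pole, Mcm4 and Rfc2 did not. Over the full windows of 300 bases, 14 of the 37 promoters (37.8%) held an E2F word, against 2.32% of 27025 first-listed mouse promoters of that length. Among the 7 genes lower in GFP+ cells, 2 had such a word (Mcm7 and Rfc3), and among the 30 others with a promoter 12 did. These 12 include Cdt1, which had no reads and could not be tested. A CCAAT box (CCAAT on either strand) was present in 22 of the 37 and in 37.9% of all promoters. The cell cycle homology words TTTGAA and TTCGAA were present in 6 of the 37 and in 19.4% of all promoters. By call, the CCAAT box was in 5 of the 7 promoters of lower genes and 17 of the 30 others, and the cell cycle homology words were in 4 of the 7 and 2 of the 30. Neither motif lies within an E2F octamer, though neighbouring matches can share bases. Median GC content was 60% in the replication promoters and 52.7% in all. These matches describe letters in a window and not bound sites.

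The comparison of GFP+ with GFP- cells asked how transcripts of the replication machinery differ between stromal cells with and without reporter activity. A total of 7 members were lower in GFP+ cells and none was higher. They were the helicase subunits Mcm2 and Mcm7, the helicase activator Mcm10, the clamp loader subunit Rfc3, the single-strand binding protein Rpa1, and the lagging-strand enzymes Fen1 and Lig1, with differences from 1.58-fold to 2.82-fold. The largest of these, in Rfc3, went from a log2 fold change of -1.49 to -0.88 without GFP- replicate 1. The other 36 tested members, among them Pcna, Mcm4, Mcm5 and all of the polymerase genes, did not pass the test. By DESeq2 with an adjusted p under 0.05, 7 of 43 members (16.3%) were therefore called lower, beside 4.76% of all 15283 genes tested, and 0 of 43 were called higher, beside 4.66%. Before adjustment 12 of 43 members had a p under 0.05 and a negative difference, beside 10.8% of all genes tested, and 0 had a positive one, beside 10.2%. DNA replication was a pathway that the study itself named as lower from these libraries, and Mcm2 was among its examples, so neither is independent evidence of its direction.

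**Figure D1:**
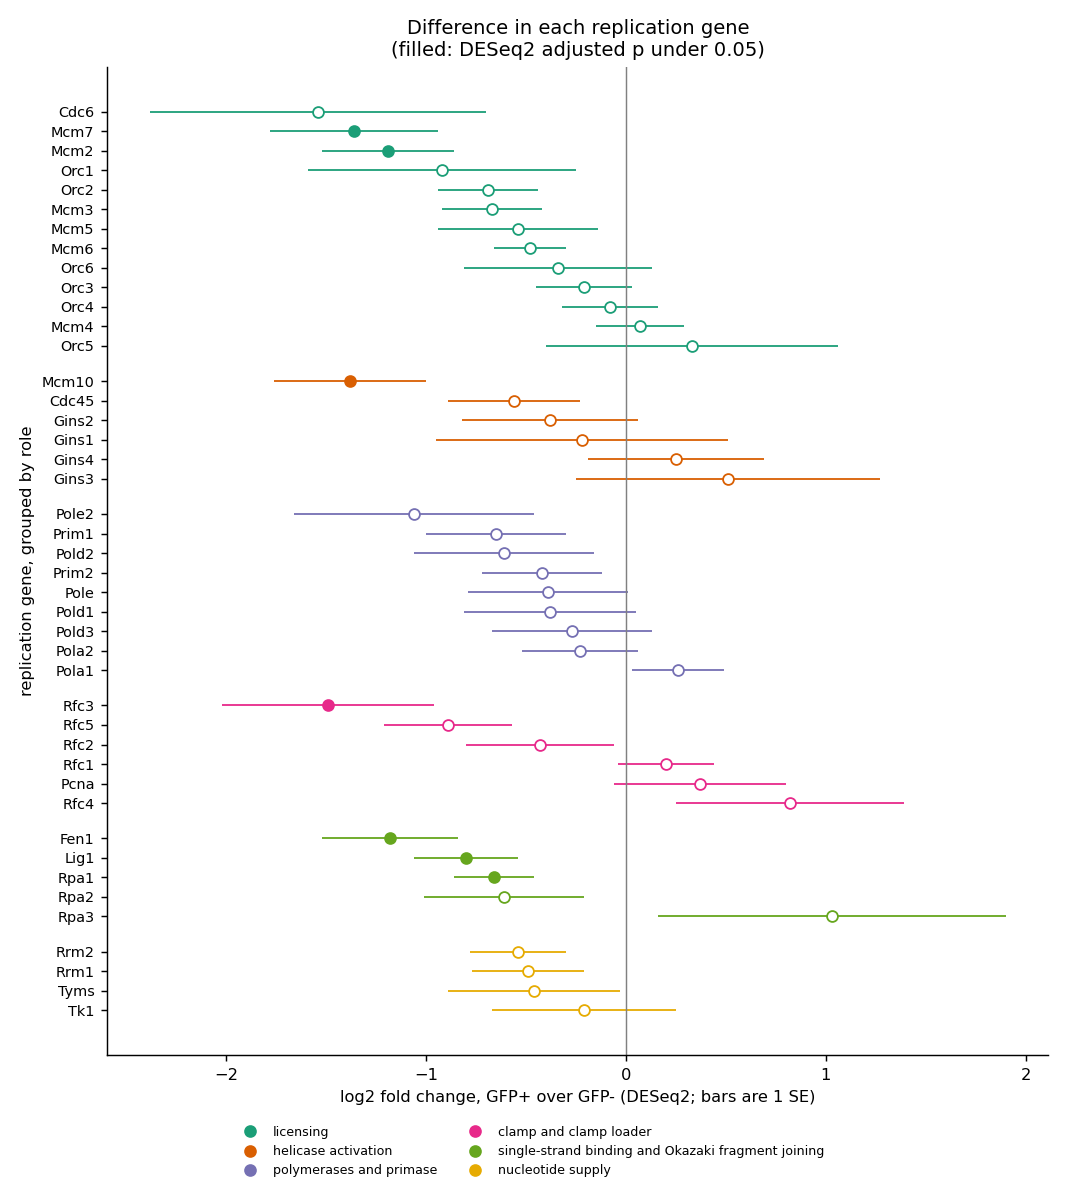
Log2 fold change of each of the 43 replication genes with a count, GFP+ over GFP- (x axis, DESeq2), by gene (y axis) grouped by role; bars are 1 SE and filled points have a DESeq2 adjusted p under 0.05. The 7 filled points all lie left of 0, between -0.66 and -1.49, and open points lie on both sides.

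The direction was uneven across the machinery. Of the 43 members, 34 had a negative log2 fold change and 9 a positive one, beside 50.5% negative over all genes tested. Their median was -0.46, and that of all tested genes was -0.01. The lowest value was -1.54 (Cdc6, not called) and the highest 1.03 (Rpa3, not called), and the smallest adjusted p of any member with a positive value was 0.444 (DESeq2). In 7 members every GFP+ library lay under every GFP- library, which held for 5.95% of all tested genes, and 0 members lay wholly above, which held for 6.37%. These were Orc2, Mcm10, Prim1, Rfc3, Rfc5, Rpa1 and Fen1, so that Mcm2, Mcm7 and Lig1 were called with overlapping groups and Orc2, Prim1 and Rfc5 did not overlap and were not called. Without GFP- replicate 3 the count of members lying wholly under was 17, beside 10.6% of all tested genes. It was 11 with CPM scaling, beside 9.16%, and 4 with TMM scaling, beside 5.13%.

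How many members were called depended on the test and on single libraries. The edgeR quasi-likelihood test called 1 member lower (Mcm2), beside 2.28% of all genes, and 0 higher, beside 2.83%. Limma voom called 7 lower and 0 higher, each beside 4.5%. Leaving out GFP- replicate 1, 2, 3 or 4 gave 2, 3, 11 and 2 of 43 members lower, beside 3.68%, 3.7%, 5.89% and 3.01% of all genes. Leaving out GFP+ replicate 1, 2, 3 or 4 gave 6, 7, 2 and 4, beside 5.25%, 4.28%, 3.58% and 4.49%. Without both replicate 1 libraries the count was 3, beside 4.25%, and at an adjusted p under 0.01 it was 3, beside 3.04%. Where only 1 or 2 of 43 members were called, their share was near that of all genes. No member was called higher in any of these fits, whereas of all genes 4.4%, 3.5%, 6.13% and 3.21% were without GFP- replicates 1 to 4, 3.82%, 4.18%, 3.17% and 4.16% without GFP+ replicates 1 to 4, 3.68% without both replicate 1 libraries and 3.05% at an adjusted p under 0.01.

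Melanocyte transcripts moved with the same contrast. All 12 genes of a melanocyte list (Mlana, Pmel, Tyr, Tyrp1, Dct, Sox10, Mitf, Slc45a2, Oca2, Trpm1, Slc24a5 and Gpr143) were lower in GFP+ cells, with a median log2 fold change of -3.14. Their summed normalised count was 26732 to 77481 in GFP- and 4559 to 12307 in GFP+ libraries, without overlap, and only Gpr143 was at 0 in any library (GFP+ replicate 1). MO5 cells are a dividing line of the pigment lineage. With the melanocyte score of each library as a covariate, DESeq2 called 0 members in either direction, beside 0.192% of all genes lower and 0.102% higher, the median log2 fold change of the members was -0.11, and 17 of 43 members changed sign. That fit gave log2 fold changes of -1.84 for Mcm2, 0.38 for Mcm7, -0.38 for Mcm10 and -0.99 for Rfc3. It gave -0.19 for Rpa1, -0.13 for Fen1 and -0.62 for Lig1. The score ran from 10.12 to 11.7 in GFP- and from 6.22 to 9.07 in GFP+ libraries, without overlap, so that in this fit the score and the group cannot be told apart. In bulk RNA, fewer cells of a type and less RNA per cell cannot be told apart.

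Lists for other cell types were compared in the same way. By DESeq2 no gene was called in the leukocyte list (0 of 11 tested), the endothelial list (0 of 6) or the keratinocyte list (0 of 2), while limma voom called 1 endothelial gene higher. The pericyte list had 1 of 5 called higher (Abcc9, log2 fold change 1.15, DESeq2 adjusted p 0.0493) and the stromal list 6 of 8. Of 5 tested Schwann cell genes 4 were lower, of which Sox10 is also on the melanocyte list. The median of these 5 was -2.44, and the summed list had 1329 to 3226 normalised counts in GFP- against 278 to 703 in GFP+ libraries, without overlap. Leukocyte genes summed to 833 to 5801 normalised counts in GFP- against 799 to 4495 in GFP+ libraries, with GFP- replicate 3 highest. The part of these cell types in the replication values was not tested.

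**Figure D2:**
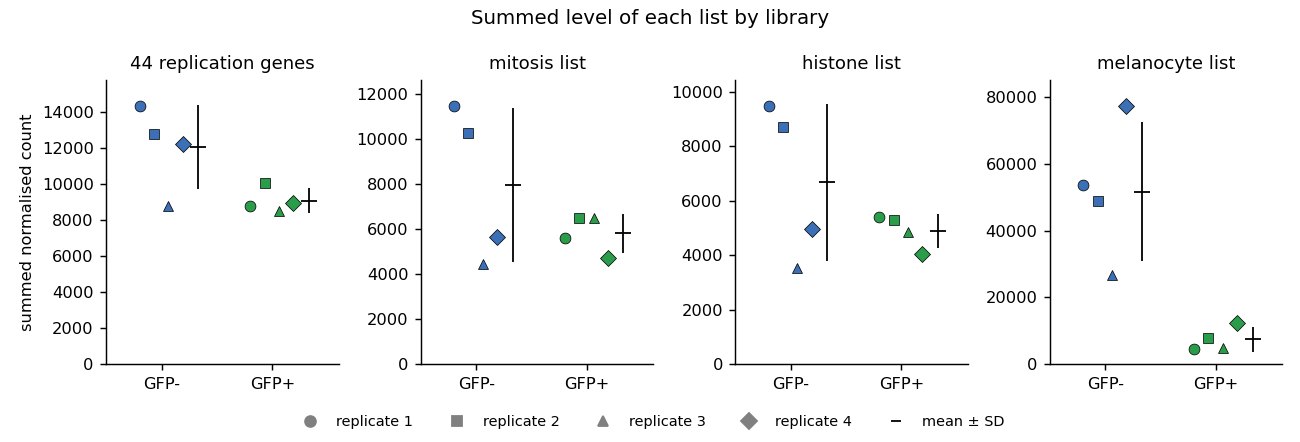
Summed normalised count (y axis) of the replication genes, the mitosis list, the replication-dependent histone list and the melanocyte list in each library, by group (x axis); marker shapes give the replicate and the bar is the mean ± SD. The melanocyte sums of the groups do not overlap (26732 and above in GFP-, 12307 and below in GFP+), whereas in the other lists GFP- replicate 3 lies within or below the range of the GFP+ libraries.

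Taken over all members, the replication genes summed to 14373, 12809.9, 8801 and 12260 normalised counts in GFP- replicates 1 to 4 and to 8782, 10089.6, 8496 and 8927 in GFP+ replicates 1 to 4. GFP- replicate 3 was thus within the GFP+ range and the other GFP- libraries lay above it. The GFP- mean of 12061 ± 2350 (SD, n = 4) was 1.33 times the GFP+ mean of 9073 ± 701 (SD, n = 4). On a log2 scale, the median deviation of the members from their own mean over libraries was 0.46, 0.39, -0.15 and 0.38 in GFP- replicates 1 to 4, and -0.50, 0.01, -0.17 and -0.15 in GFP+ replicates 1 to 4. GFP+ replicate 1 was the lowest library on this measure.

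**Figure D3:**
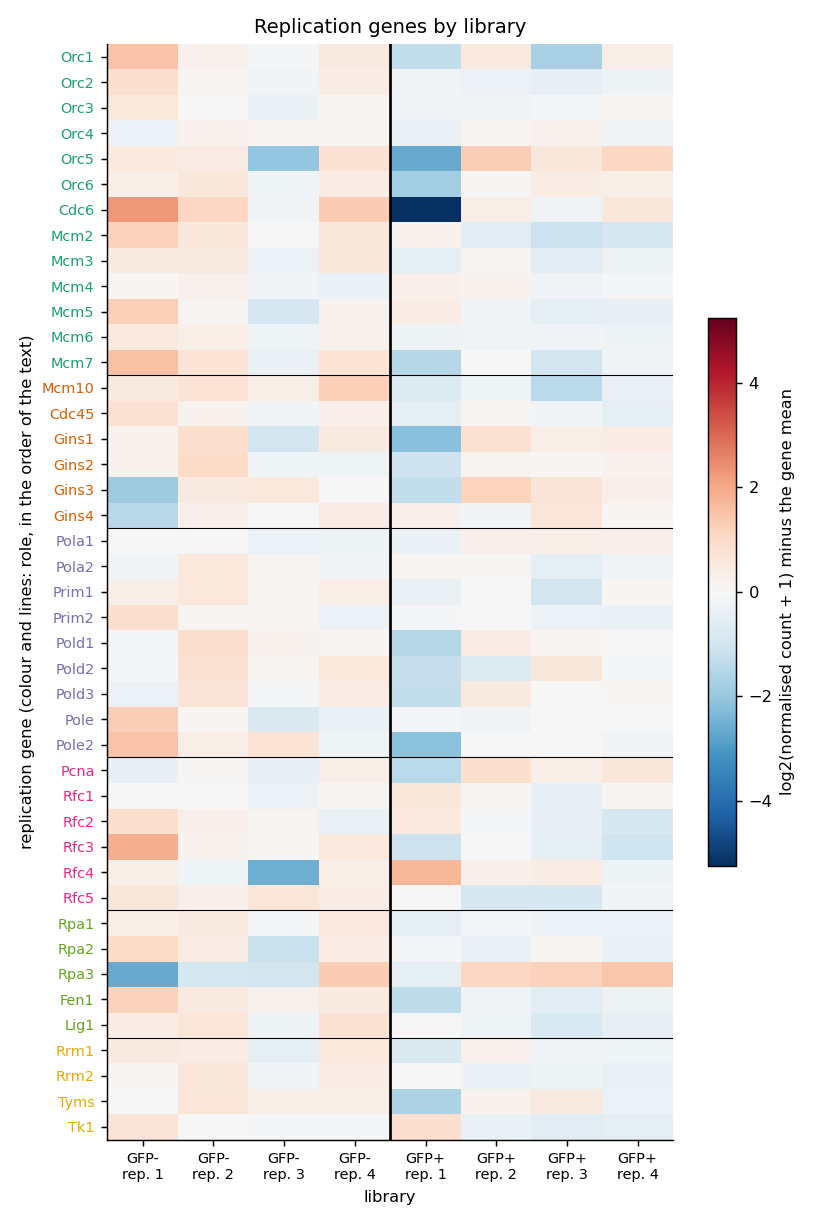
Each replication gene (rows, coloured by role) in each library (columns), as log2(normalised count + 1) minus the mean of that gene over the 8 libraries. GFP+ replicate 1 holds the lowest value of several genes, including a Cdc6 count of 0, and GFP- replicates 1, 2 and 4 are mostly above the gene mean.

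Origin licensing held the largest group of members. Of its 14 genes 13 could be tested, 2 were lower in GFP+ cells (Mcm2 and Mcm7), 11 had negative and 2 positive log2 fold changes, and the median was -0.54. Mcm2 (ENSMUSG00000002870, GRCm38 chromosome 6, 88883474 to 88898780, minus strand) stood at 1175, 778, 527 and 772 normalised counts in GFP- replicates 1 to 4 and at 580, 341, 237 and 282 in GFP+ replicates 1 to 4. Only GFP+ replicate 1 reached into the GFP- range, above GFP- replicate 3. Mcm2 was 2.29-fold lower in GFP+ cells (log2 fold change -1.19 ± 0.33, SE), at a DESeq2 adjusted p of 0.00635 and an edgeR adjusted p of 0.0368. It kept its call in each fit that left out 1 library (DESeq2 adjusted p from 7.05e-06 to 0.0484) and lost it with the melanocyte score as a covariate (log2 fold change -1.84, DESeq2 adjusted p 0.413).

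Mcm7 (ENSMUSG00000029730, chromosome 5, 138164583 to 138172422, minus strand) stood at 602, 349, 165 and 348 normalised counts in GFP- and at 75.0, 205, 108 and 189 in GFP+ replicates 1 to 4. The groups overlapped through GFP- replicate 3 alone. Mcm7 was 2.57-fold lower (log2 fold change -1.36 ± 0.42, SE), at a DESeq2 adjusted p of 0.0194 and an edgeR adjusted p of 0.0795. The call was lost without GFP- replicate 1, 2 or 4 (DESeq2 adjusted p 0.123, 0.0579 and 0.0615) and without GFP+ replicate 3 (0.0907). With the melanocyte score as a covariate the log2 fold change of Mcm7 turned positive, at 0.38 (DESeq2 adjusted p 0.981). The ends of Mcm7 overlap Ap4m1 and Cops6 on the opposite strand, and reads were counted by strand. Neither partner was called (Ap4m1, log2 fold change 0.17, DESeq2 adjusted p 0.897, and Cops6, log2 fold change -0.58, adjusted p 0.139).

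The other 4 ring subunits were not called by DESeq2. Mcm3 stood at 689, 690, 396 and 744 normalised counts in GFP- and at 343, 520, 338 and 414 in GFP+ replicates 1 to 4. GFP- replicate 3 sat apart from its group, at the level of the GFP+ libraries. The log2 fold change of Mcm3 was -0.67 ± 0.25 (SE), for which DESeq2 gave an adjusted p of 0.0674 that became 0.00403 without GFP- replicate 3 and 0.0275 without GFP+ replicate 2. Limma voom called Mcm3 lower, at an adjusted p of 0.0304. Mcm6 stood at 1019, 885, 604 and 827 normalised counts in GFP- and at 593, 623, 644 and 585 in GFP+ replicates 1 to 4. Its GFP+ libraries were close together and overlapped GFP- replicate 3 only. Its log2 fold change was -0.48 ± 0.18 (SE), for which DESeq2 gave an adjusted p of 0.0853, which became 0.00288 without GFP- replicate 3. Mcm5 stood at 720, 333, 165 and 339 normalised counts in GFP- and at 389, 270, 214 and 221 in GFP+ replicates 1 to 4, with a log2 fold change of -0.54 ± 0.40 (SE), at a DESeq2 adjusted p of 0.477. Here GFP- replicate 1 was far above the rest and the groups overlapped widely. Mcm4 stood at 562, 623, 472 and 416 normalised counts in GFP- and at 640, 596, 464 and 489 in GFP+ replicates 1 to 4. The groups covered nearly the same range, and the log2 fold change was 0.07 ± 0.22 (SE), for which DESeq2 gave an adjusted p of 0.918.

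Since the 6 proteins act in equal numbers in 1 ring, their transcripts were also set beside each other per kilobase of exon. The sum over Mcm2 to Mcm7 was 1044, 821, 521 and 766 normalised counts per kilobase in GFP- replicates 1 to 4 and 595, 601, 469 and 511 in GFP+ replicates 1 to 4. GFP- replicate 3 again fell among the GFP+ libraries. Of this sum, Mcm2 made up 14.7% ± 1.07 (SD, n = 4) in GFP- and 9.35% ± 3.15 in GFP+ libraries, with GFP+ replicate 1 (14.0%) inside the GFP- range of 13.6% to 16.2%. Mcm7 made up 10.01% ± 2.42 in GFP- and 6.03% ± 2.53 in GFP+ libraries, and the groups overlapped, since GFP+ replicates 2 (7.7%) and 4 (8.4%) were above GFP- replicate 3 (7.1%). Mcm4 made up 19.1% ± 4.99 in GFP- and 28.0% ± 1.42 in GFP+ libraries, and its GFP+ shares (26.7% to 30%) all lay above its GFP- shares (15.0% to 25.3%). Mcm3, Mcm5 and Mcm6 held overlapping shares. An even split would be 16.7% for each subunit. Exon length was taken over all annotated transcripts of a gene (6.956 kb for Mcm2 and 3.589 kb for Mcm4). A share set beside 16.7% therefore also depends on that length, which was the same in both groups.

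**Figure D4:**
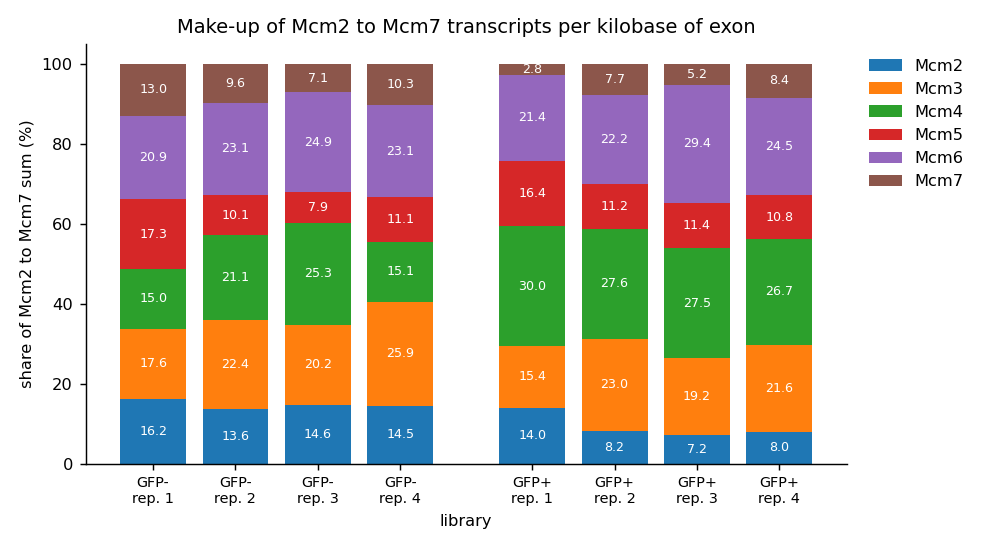
Share of each of Mcm2 to Mcm7 in their summed normalised count per kilobase of exon (y axis, %), in each library (x axis). Mcm4 takes 26.7% to 30% in GFP+ and 15.0% to 25.3% in GFP- libraries, and Mcm2 takes 7.2% to 8.2% in GFP+ replicates 2 to 4.

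The ratio of Mcm2 to Mcm4 normalised counts, picked after the values were seen and so given without a test, was 2.09, 1.25, 1.12 and 1.85 in GFP- replicates 1 to 4 and 0.907, 0.572, 0.510 and 0.578 in GFP+ replicates 1 to 4. It does not depend on library size, and every GFP+ library was below every GFP- library. The same ratio taken to Mcm6 did overlap, at 1.15, 0.879, 0.873 and 0.933 in GFP- replicates 1 to 4 and 0.979, 0.548, 0.368 and 0.483 in GFP+ replicates 1 to 4.

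The rest of the licensing group is the loader of the ring. Orc2, a core ORC subunit, stood at 505, 306, 253 and 367 normalised counts in GFP- and at 243, 224, 207 and 232 in GFP+ replicates 1 to 4. No GFP+ library reached the lowest GFP- library, yet the log2 fold change of -0.69 ± 0.25 (SE) had a DESeq2 adjusted p of 0.0600. It passed without GFP- replicate 3 (0.0120). Nif3l1, which overlaps it on the opposite strand, had a log2 fold change of -0.80 (DESeq2 adjusted p 0.419). The other 5 ORC genes had log2 fold changes from -0.92 (Orc1) to 0.33 (Orc5) with overlapping groups. Cdc6, which recruits the helicase to ORC, had 0 reads in GFP+ replicate 1, 32.3 to 55.4 normalised counts in the other GFP+ libraries and 32.96 to 179 in GFP- libraries. Its log2 fold change of -1.54 ± 0.84 (SE) had a DESeq2 adjusted p of 0.284. Cdt1 was listed at 0 in all 8 libraries, and a count of 0 over their summed reads allows up to 3 reads, or 0.0248 CPM. Whether its reads were lost in counting was not tested.

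Helicase activation had 1 member of 6 lower in GFP+ cells, Mcm10 (ENSMUSG00000026669, chromosome 2, 4989714 to 5012791, minus strand), whose product is needed for origin firing. Mcm10 stood at 148, 173, 132 and 251 normalised counts in GFP- and at 63.9, 90.4, 39.2 and 81.2 in GFP+ replicates 1 to 4. The groups did not overlap, and the highest GFP+ library was well under the lowest GFP- library. Mcm10 was 2.61-fold lower, with a log2 fold change of -1.38 ± 0.38 (SE), the smallest DESeq2 adjusted p of any member (0.00514) and an edgeR adjusted p of 0.0775. Leaving out GFP- replicate 4, its highest library, gave 0.0945. Cdc45, which enters the active helicase, had a log2 fold change of -0.56 (DESeq2 adjusted p 0.332). The 4 GINS genes were split, at -0.22 (Gins1), -0.38 (Gins2), 0.51 (Gins3) and 0.25 (Gins4), and all had overlapping groups.

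Polymerases and primase had 0 of 9 members called, with 8 negative and 1 positive log2 fold changes and a median of -0.39. Prim1, the catalytic primase subunit, was the only one without overlap. It stood at 111, 134, 98.9 and 115 normalised counts in GFP- and at 68.0, 88.3, 45.3 and 93.9 in GFP+ replicates 1 to 4. The closest libraries, GFP- replicate 3 and GFP+ replicate 4, were nearly level, and the log2 fold change of -0.65 ± 0.35 (SE) had a DESeq2 adjusted p of 0.280. Pola1, the catalytic subunit of polymerase α, was the member with a positive value, at 361 ± 43.3 (SD, n = 4) normalised counts in GFP- against 435 ± 85.2 in GFP+ libraries (log2 fold change 0.26, DESeq2 adjusted p 0.567). The genes of polymerase δ (Pold1, Pold2 and Pold3) ran from -0.61 to -0.27 and those of polymerase ε were at -0.39 (Pole) and -1.06 (Pole2), with adjusted p from 0.308 to 0.780. GFP+ replicate 1 had 7 reads of Pole2 and was the lowest library for Pold1, Pold2, Pold3 and Pole2.

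The clamp and its loader had 1 of 6 members called lower, Rfc3, with 3 negative and 3 positive log2 fold changes. Pcna, the sliding clamp and a common marker of S phase, stood at 220, 310, 220 and 379 normalised counts in GFP- and at 111, 531, 381 and 451 in GFP+ replicates 1 to 4. GFP+ replicates 2, 3 and 4 were above every GFP- library and GFP+ replicate 1 was below every one. The log2 fold change of Pcna was 0.37 ± 0.43 (SE), for which DESeq2 gave an adjusted p of 0.691. Its value is uncertain, because the processed copy Pcna-ps2, which can share its reads, had between 5 and 175 reads per library.

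Rfc3 (ENSMUSG00000033970, chromosome 5, 151642756 to 151651242, minus strand), a small subunit of the RFC clamp loader, stood at 239, 72.4, 65.9 and 89.8 normalised counts in GFP- and at 29.2, 64.0, 45.3 and 30.2 in GFP+ replicates 1 to 4. The groups did not overlap, but GFP- replicate 3 and GFP+ replicate 2 were almost level and GFP- replicate 1 stood far above the rest. Rfc3 was 2.82-fold lower (log2 fold change -1.49 ± 0.53, SE), at a DESeq2 adjusted p of 0.0486 and an edgeR adjusted p of 0.183. The call was lost in 15 of 19 alternatives, among them limma voom (adjusted p 0.128), DESeq2 with TMM factors (0.0505) and DESeq2 with the replicate number as a block (0.147). It was also lost without any of 6 libraries, namely GFP- replicate 1 (log2 fold change -0.88, DESeq2 adjusted p 0.334), GFP- replicate 2 or 4 (0.0534 and 0.0961) and GFP+ replicate 1, 3 or 4 (0.109, 0.118 and 0.159). Rfc5, another small subunit, stood at 168, 135, 176 and 147 normalised counts in GFP- and at 110, 62.8, 62.2 and 101 in GFP+ replicates 1 to 4. Its groups did not overlap, and its log2 fold change of -0.89 ± 0.32 (SE) had a DESeq2 adjusted p of 0.0611, which became 0.0363 without GFP+ replicate 1. Rfc1, the large subunit, and Rfc4 had log2 fold changes of 0.20 and 0.82, and Rfc2 had -0.43, all with overlapping groups.

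Single-strand binding and Okazaki fragment joining held 3 of the 7 called genes among 5 members. Rpa1 (ENSMUSG00000000751, chromosome 11, 75298166 to 75348324, minus strand) encodes the large subunit of RPA, which coats unwound DNA. It stood at 654, 707, 483 and 725 normalised counts in GFP- and at 355, 480, 411 and 412 in GFP+ replicates 1 to 4. The groups did not overlap, although GFP- replicate 3 and GFP+ replicate 2 were nearly level. Rpa1 was 1.58-fold lower (log2 fold change -0.66 ± 0.20, SE), at a DESeq2 adjusted p of 0.0129 and an edgeR adjusted p of 0.0886. Its call was lost without GFP- replicate 1, 2 or 4 (DESeq2 adjusted p 0.0540, 0.103 and 0.110) and without GFP+ replicate 1, 3 or 4 (0.0568, 0.0765 and 0.0653). Rpa2, the middle subunit, had a log2 fold change of -0.61 and Rpa3, the small subunit, 1.03, neither called, and Rpa3 had only 1 or 2 reads in GFP- replicates 3 and 1.

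Fen1 (ENSMUSG00000024742, chromosome 19, 10199132 to 10204169, minus strand) encodes the flap endonuclease that trims the RNA primers of Okazaki fragments. It stood at 412, 247, 209 and 249 normalised counts in GFP- and at 70.8, 159, 121 and 147 in GFP+ replicates 1 to 4. The groups did not overlap. Fen1 was 2.26-fold lower (log2 fold change -1.18 ± 0.34, SE), at a DESeq2 adjusted p of 0.0107 and an edgeR adjusted p of 0.0766. It missed the threshold without GFP- replicate 1 (0.0814) or GFP+ replicate 3 (0.0517). Tmem258, which overlaps the start of Fen1 on the opposite strand, had a log2 fold change of 0.56 (DESeq2 adjusted p 0.539). The ratio of Fen1 to Pcna counts, also picked after the values were seen, was 0.657 to 1.88 in GFP- and 0.299 to 0.638 in GFP+ libraries.

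Lig1 (ENSMUSG00000056394, chromosome 7, 13277283 to 13311433, plus strand) encodes the ligase that seals the trimmed fragments and was, with Mcm6, at the top of the members' levels in GFP- cells, at 179 ± 50.5 (SD, n = 4) normalised counts per kilobase of exon against 179 ± 37.0 for Mcm6. It stood at 742, 892, 472 and 958 normalised counts in GFP- and at 558, 492, 326 and 419 in GFP+ replicates 1 to 4. GFP- replicate 3 lay below GFP+ replicates 1 and 2, and the other GFP- libraries lay above all GFP+ libraries. Lig1 was 1.74-fold lower (log2 fold change -0.80 ± 0.26, SE), at a DESeq2 adjusted p of 0.0315 and an edgeR adjusted p of 0.0854. The call was lost without GFP- replicate 1, 2 or 4 (DESeq2 adjusted p 0.0628, 0.146 and 0.173) and without GFP+ replicate 2, 3 or 4 (0.0593, 0.137 and 0.0982). Zswim9, which overlaps it on the opposite strand, had a log2 fold change of 0.04 (DESeq2 adjusted p 0.985).

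**Figure D5:**
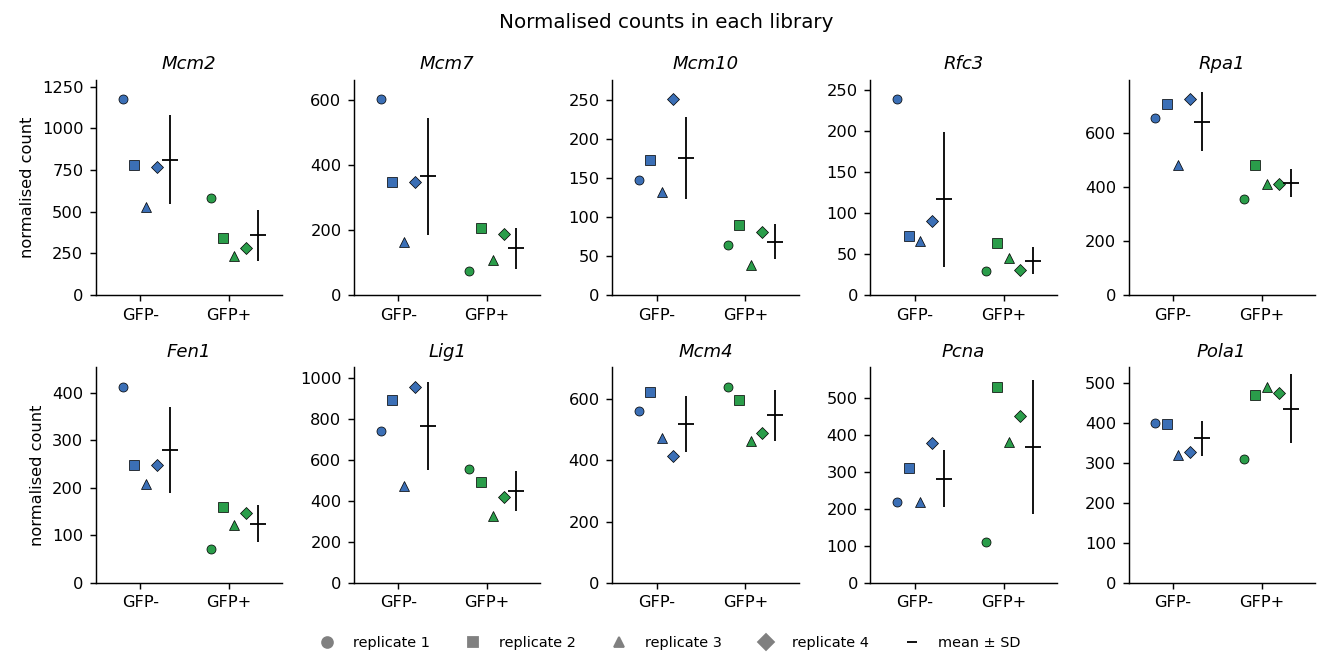
Normalised count (y axis, from 0) of the 7 genes called lower and of Mcm4, Pcna and Pola1, in each library by group (x axis); marker shapes give the replicate and the bar is the mean ± SD of 4 libraries. Mcm10, Rfc3, Rpa1 and Fen1 show no overlap between groups, Mcm2, Mcm7 and Lig1 overlap through GFP- replicate 3, and GFP+ replicate 1 is the lowest library for Pcna and Pola1.

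Nucleotide supply had 0 of 4 members called, all with negative log2 fold changes and overlapping groups. Rrm1 and Rrm2, the subunits of ribonucleotide reductase, were at -0.49 ± 0.28 (SE) and -0.54 ± 0.24, with DESeq2 adjusted p of 0.321 and 0.143. Rrm2 passed in the fit without GFP- replicate 3 (DESeq2 adjusted p 0.0415). Tyms, the thymidylate synthase gene, was at -0.46 ± 0.43, and Tk1, the cytosolic thymidine kinase gene, at -0.21 ± 0.46, with adjusted p of 0.604 and 0.870. Tk1 was highest in the replicate 1 library of each group, at 129 normalised counts in GFP- and 147 in GFP+, against 76.2 to 78.8 and 53.8 to 62.3 in the others.

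Genes around this core were compared from lists of the wider pathway. Among 36 other replication factors 0 were called by DESeq2 (0 by edgeR, and 3 lower and 0 higher at an unadjusted p under 0.05), with 23 negative and 13 positive log2 fold changes and a median of -0.15. Gmnn, the inhibitor of CDT1, was at -0.88 ± 0.82 (log2 fold change, SE), with 0 reads in GFP- replicate 3 and 248 normalised counts in GFP- replicate 1. The S phase kinase Cdc7 and its activator Dbf4 were at 0.54 ± 0.61 and -0.55 ± 0.37. Top2a, the topoisomerase that untangles copied DNA, was at -0.22 ± 0.30, with 692 to 2165 normalised counts in GFP- against 1174 to 1573 in GFP+ libraries. None of these 4 was called (DESeq2 adjusted p from 0.434 to 0.758).

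Of 23 rows for other nucleotide synthesis genes 0 were called by DESeq2 or edgeR (1 lower and 2 higher at an unadjusted p under 0.05), while limma voom called 1 higher, and the median was -0.19. The E2F and RB family had 0 of 15 called by DESeq2 or edgeR (2 lower and 0 higher at an unadjusted p under 0.05) and a median of -0.09. E2f1, an activator of many of the genes above, stood at 121, 162, 242 and 133 normalised counts in GFP- and at 33.3, 114, 77.6 and 110 in GFP+ replicates 1 to 4. Its groups did not overlap, and the log2 fold change of -0.91 ± 0.43 (SE) had a DESeq2 adjusted p of 0.189.

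Mitotic genes had 1 of 19 members lower by DESeq2 (5.26%, beside 4.76% of all genes tested), Birc5, the survivin gene of the chromosomal passenger complex. Birc5 stood at 138, 221, 165 and 219 normalised counts in GFP- and at 36.1, 114, 94.5 and 60.4 in GFP+ replicates 1 to 4, without overlap, and differed by -1.29 ± 0.40 (SE) on the log2 scale, at a DESeq2 adjusted p of 0.0212 and an edgeR adjusted p of 0.118. Limma voom called 2 of the 19 lower, beside 4.5% of all genes, and edgeR 0, beside 2.28%. The median of the mitosis list was -0.49. Mki67, the gene of the Ki-67 antigen, ranged from 1527 to 4637 normalised counts in GFP- and from 1744 to 2456 in GFP+ libraries and was not called (log2 fold change -0.50 ± 0.35, DESeq2 adjusted p 0.440). GFP- replicates 1 and 2 were far above the GFP+ libraries and GFP- replicates 3 and 4 were below all of them.

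Histone genes of the replication-dependent clusters are expressed in S phase, and 46 of 70 could be tested. Of these 2 were lower by DESeq2 (4.35%, beside 4.76% of all genes tested) and 0 higher, with a median log2 fold change of -0.57. Hist1h1d, a linker histone gene, stood at 704, 621, 374 and 504 normalised counts in GFP- and at 190, 339, 230 and 269 in GFP+ replicates 1 to 4, without overlap, and its log2 fold change was -1.12 ± 0.27 (SE), for which DESeq2 gave an adjusted p of 0.00114 and edgeR one of 0.0268. Hist2h2ac had a log2 fold change of -1.15 ± 0.39 (SE), for which DESeq2 gave an adjusted p of 0.0347 and edgeR one of 0.105. Members of this family are nearly identical in sequence, so that counting could divide or drop their reads, and both values are uncertain.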

How the data were processed

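Libraries of total RNA had been prepared with a stranded low-input kit (SMARTer Pico) and sequenced on an Illumina NextSeq. The submitters' processing notes name cutadapt 3.4, STAR 2.7.3a and featureCounts 2.0.1 on GRCm38. The authors deposited a table of raw read counts per gene and library, counted by strand, and all values start from these counts. Beside the counts, that deposited file has a score (the count scaled by library and rounded), a mean signal, and the ratio, log2 fold change, p-value and adjusted p-value of the authors' own comparison, none of which were used. Per-sample columns of no sample: 0.

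In R 4.3.3, DESeq2 1.42.0 was fitted to all genes with a count in any library, with the group as the only term, and genes with a Benjamini-Hochberg adjusted p under 0.05 were called. The edgeR 4.0.16 quasi-likelihood test, limma 3.58.1 voom, other size factors and filters, a replicate block, a melanocyte score as a covariate (mean of log2(normalised count + 1) over the list) and each library left out in turn were alternatives. No replicate pair agreed within sampling noise. Coordinates and exon lengths came from GENCODE M21, and promoters from RefSeq on GRCm38.p6, with the first-listed window of each gene.

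Members and lists were chosen with earlier results of these data known. Members called in DESeq2 or edgeR, those with groups that did not overlap, Mcm2 to Mcm7 and Pcna were to be given in every library, and of other lists the called genes and Gmnn, Cdc7, Dbf4, Top2a, Mki67 and E2f1 were to be named. Reads carried no molecular identifiers here, so the limit that a count of 0 allows (3 counts) covers counting error only.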

Additional observations from a re-analysis of the deposited data

Results flagged for a closer look

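Each of 86 groups of 4 normalised counts, 43 genes in each of the groups, was searched for a highest or lowest library that stood apart from the other 3. Chance flags about 1 in 20 groups, or 4.3 here, and 8 values were flagged. Of these, 4 were in GFP+ replicate 1, 2 in GFP- replicate 1, 1 in GFP- replicate 3 and 1 in GFP- replicate 4.

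In GFP+ replicate 1, the helicase gene Gins2 stood at 41.7 normalised counts against 97.6 to 102 in the other GFP+ libraries. The polymerase genes Pola1 (308 against 470 to 489) and Pole2 (9.72 against 41.6 to 47.6) were likewise low in that library, whereas the thymidine kinase gene Tk1 was high, at 147 against 53.8 to 62.3. GFP- replicate 1 also had the highest Tk1 value of its group, at 129 against 76.2 to 78.8, and a high count of the clamp loader gene Rfc3, at 239 against 65.9 to 89.8. The helicase gene Mcm3 was low in GFP- replicate 3, at 396 against 689 to 744. The RPA subunit gene Rpa3 was high in GFP- replicate 4, at 57.3 against 2.71 to 11.5.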

How the results depend on the processing

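Against 7 members called lower, the edgeR quasi-likelihood test gave 1 (beside 2.28% of all genes) and an adjusted p under 0.01 gave 3 (3.04%). The melanocyte score as a covariate gave 0 (0.192%), and leaving out 1 library gave 2 to 11 (3.01% to 5.89%). Leaving out both replicate 1 libraries, a setting chosen after seeing the data, gave 3 (4.25%). The other settings gave 5 to 8, beside 1.99% to 5.17% of all genes, and 0 members were called higher in any of them. The median log2 fold change of the members was -0.11 with the covariate and stayed between -0.58 and -0.29 in all other settings. Members without overlap numbered 4 with TMM scaling (beside 5.13% of all genes tested), 11 with CPM scaling (9.16%) and 17 without GFP- replicate 3 (10.6%). Leaving out any other library gave 7 to 10, for which the share of all genes was not counted. Those counts therefore have no background to be read against. The cause of these shifts was not tested.

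With the covariate, Orc1 (1.25), Orc3 (0.08), Orc4 (0.07), Orc6 (1.20), Cdc6 (2.22), Mcm3 (0.10), Mcm7 (0.38), Gins1 (2.23), Gins2 (0.59), Prim1 (0.07), Pold1 (0.77), Pold3 (1.12), Rrm1 (0.52) and Tyms (0.22) turned to positive log2 fold changes, and Mcm4 (-0.21), Rfc1 (-0.01) and Rfc4 (-0.78) to negative ones. When 1 library was left out, sign changes occurred in Orc4 (-0.20 to 0.03), Mcm4 (-0.04 to 0.17), Gins1 (-0.49 to 0.09), Gins4 (-0.07 to 0.49), Pole (-0.59 to 0.15) and Tk1 (-0.66 to 0.02). Without both replicate 1 libraries Orc3 (0.00), Gins1 (0.01), Gins4 (-0.07) and Pole (0.17) changed sign. None of these values was called.

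Libraries with the same replicate number did not deviate together (correlations of 0.05, -0.16, -0.12 and 0.26 over 8812 genes), and no source ties a number to 1 mouse, so the numbers were not taken to pair the samples. Of the 4 numbers, only replicate 4 correlated best with its own number. The replicate block gave 6 lower and 0 higher members, with Rfc3 the call it lost. The depth of GFP- replicate 3 (883144 reads) limits every member with few reads there.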
